A study of Mus musculus with 6 samples.

Results

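The potassium channel family was followed here in RNA sequencing of mouse cerebral cortex at postnatal day 8. Members were taken by gene symbol: every Kcn gene of the pore-forming, silent, auxiliary and antisense kinds, apart from the glial and vascular inward rectifiers *Kcnj8*, *Kcnj10*, *Kcnj13* and *Kcnj16*. This gave 94 of the 34745 genes in the table, of which 72 reached 0.5 FPKM in at least 3 of the 6 libraries and were kept, among 14147 genes kept in all. FPKM counts sequenced fragments per length of transcript and per depth of the library, so levels can be compared between genes. The 72 comprised 71 protein-coding genes and the antisense RNA *Kcnmb4os2*.

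Both groups carried floxed alleles of *Psenen*, the gene of PEN-2, a subunit of the membrane protease γ-secretase. The 3 control libraries came from Pen-2 F/F mice, for which the labels name no Cre. The 3 conditional knockout (cKO) libraries came from Pen-2 F/F; hGFAP-Cre mice, in which a human GFAP promoter drives Cre recombinase. That promoter is active in astrocytes and, in the developing brain, also in radial glia, which give rise to cortical neurons and glia. By the genotypes given, Cre was present in the cKO mice alone, and its own effect cannot be told apart from that of the deletion. The titles number the libraries within a group and do not say whether the animals were separate. The tests therefore weigh each group difference against the spread among libraries, which may be technical. *Psenen* came to 6.35, 6.86 and 7.32 FPKM across control libraries 1 to 3 and to 3.56, 3.902 and 4.03 FPKM across cKO libraries 1 to 3, so the groups did not overlap (log2 fold change -0.82, SE 0.09, limma adjusted p = 0.00441). The steps between low values implied 20254000 to 26817000 fragments per library. Means are given ± SD over the 3 libraries of a group, and a difference is the mean log2 level in cKO minus that in control libraries.

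Potassium channels let potassium ions leave or enter the cell and so set its resting potential, the shape of action potentials and the rate of firing. A channel is built from pore-forming subunits, which can be opened by voltage, by calcium or sodium, or conduct at rest, and from auxiliary subunits that alter gating or traffic to the membrane. In the cortex most family members are known from neurons, while astrocytes rely on inward rectifiers and leak channels to clear potassium released during activity.

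Of the 72 members, only *Kcne1l* passed the test, and it fell. The call was an adjusted p under 0.05 (limma, Benjamini-Hochberg adjustment over all 14147 genes). It was met by 1.39% of members, against a background of 5.53% of tested genes. No member rose, against 3.67% of all tested genes, and 1 fell, against 1.87%. That background split, 519 higher and 264 lower, went to 314 and 343 with median-ratio scaling, 351 and 346 with upper-quartile scaling and 907 and 244 with equal sums of FPKM. At an unadjusted p under 0.05 there were 11 members, or 15.3%, against 22.9% of all tested genes. The median log2 fold change was 0.10 over the members and 0.07 over all tested genes, and 45 members (62.5%) lay above 0, against 63.6% of all. The libraries of the groups did not overlap for 16 members (22.2%), against 29.7% of all tested genes. Of these, 11 were higher in cKO cortex (15.3% of members, against 21.5% of all genes) and 5 lower (6.94%, against 8.17%).

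The fit also bounded how large an undetected change could be. For 67 of the 72 members the 95% interval of the log2 difference lay within a 2-fold change in either direction (93.1%, against 87.2% of all tested genes). It lay within 1.5-fold for 47 (65.3%, against 64.6%) and within 1.25-fold for 10 (13.9%, against 28.5%). Besides *Kcne1l*, the intervals of *Kcnd3*, *Kcne2*, *Kcng2* and *Kcnh4* reached past 2-fold. Fitted changes of at least 1.5-fold were found for 5 members (6.94%, against 8.69% of all tested genes). The 4 just named, with positive values, were among them. The plot of changes by class shows these intervals.

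**Figure D1:**
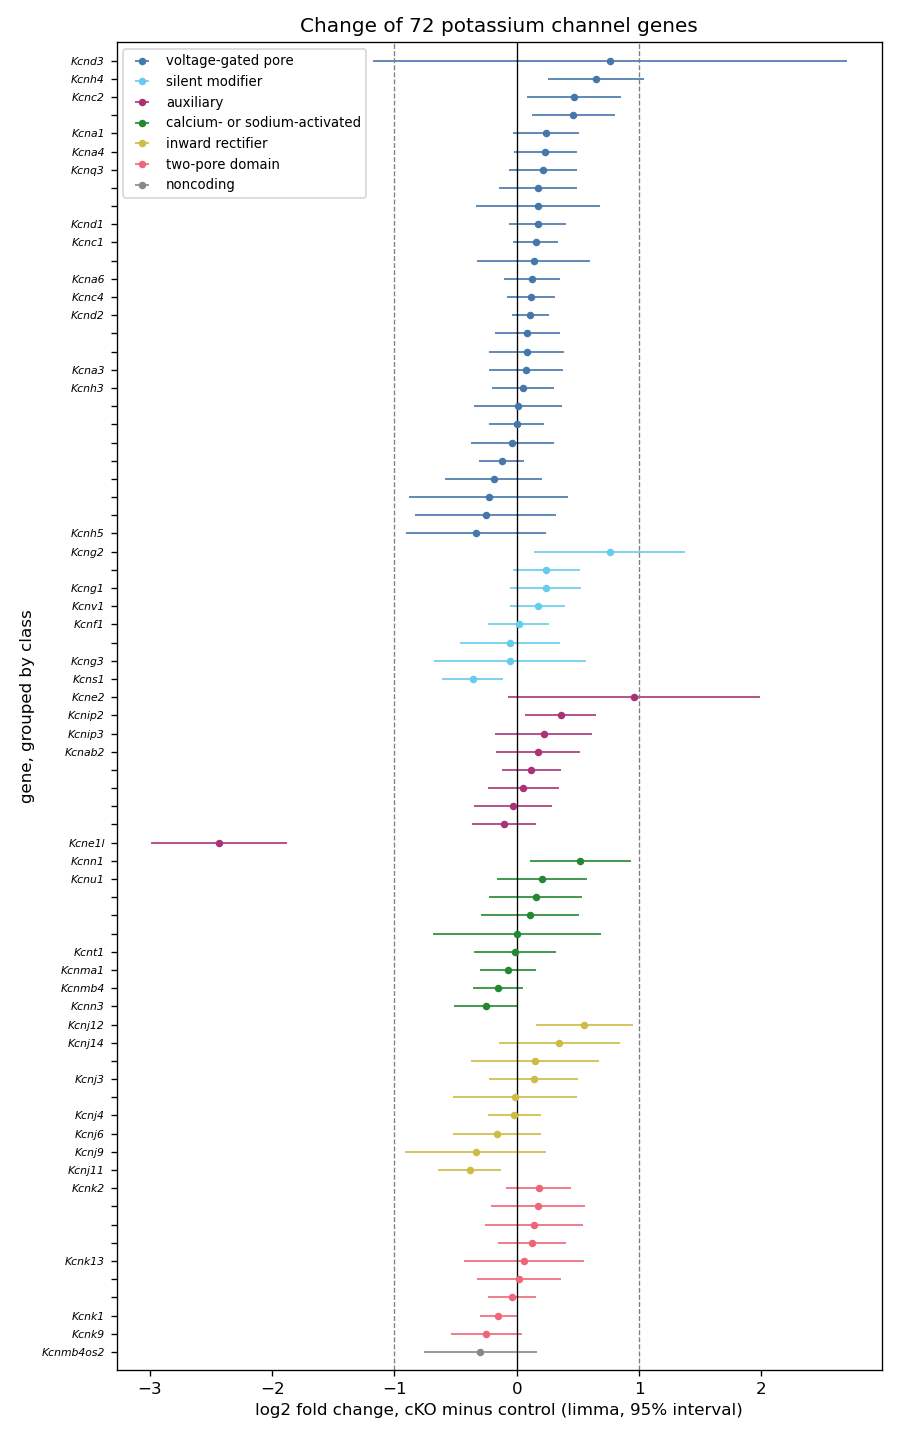
Log2 fold change (cKO minus control, horizontal axis) of the 72 kept potassium channel genes, grouped and coloured by class. Points are limma estimates, bars 95% intervals and dashed lines a 2-fold change, and genes the text names are labelled. *Kcne1l*, at -2.43, is the member far to the left, and the *Kcnd3* interval is the widest.

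Cell type markers differed between the groups, and in bulk RNA fewer cells of a type and less RNA per cell cannot be told apart. Of 8 astrocyte markers 5 fell and none rose, with summed levels of 326 to 399.9 FPKM over control libraries and 107 to 191 FPKM over cKO libraries. Of 7 oligodendrocyte precursor markers 5 rose (summed levels of 100.1 to 127 against 253 to 319 FPKM), as did 8 of 9 oligodendrocyte markers (28.1 to 44.2 against 122 to 190.1 FPKM). The labelled tissue was checked by markers of cortical excitatory neurons: all 8 were detected and none passed the test, at sums of 376 to 438 FPKM over control and 321 to 412 FPKM over cKO libraries. Of 8 interneuron markers *Gad1* and *Sst* rose. Of 8 pan-neuronal markers *Tubb3* fell, and 1 (12.5%) had a difference above 0, against 63.6% of all tested genes. In 4 of these 8 every cKO library lay below every control library (50.0%, against 8.17% of all). The 8 summed, mostly through *Tubb3*, to 2062 to 2126 FPKM over control and 1709 to 1822 FPKM over cKO libraries. No marker on these 6 lists was at 0 in any library. Their part in the values of the channel genes was not tested.

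*Kcne1l*, also known as *Kcne5*, encodes a small single-pass membrane protein of the KCNE family of auxiliary subunits, known for reducing currents of the channel KCNQ1. Its relatives KCNE1 and KCNE2 have been described as substrates of γ-secretase. The gene (ENSMUSG00000090122) lies on mm10 chromosome X, 142304752 to 142306294, on the minus strand, and GENCODE M21 gives it 1 transcript of a single exon, with the coding part from 142305597 to 142306025. *Kcne1l* was 8.33, 10.7 and 10.7 FPKM across control libraries 1 to 3 and 1.55, 1.32 and 2.59 FPKM across cKO libraries 1 to 3. All cKO libraries lay below all control libraries, and cKO library 3 was the highest of its group. With 1 transcript of 1543 bases, those values corresponded to whole fragments within 0.0104, namely 278, 335 and 412 in control and 60, 53 and 107 in cKO libraries. Its mean went down from 9.93 ± 1.38 to 1.82 ± 0.676 FPKM (n = 3 each), 5.47-fold lower in cKO cortex, a log2 fold change of -2.43 (95% interval -2.99 to -1.88, SE 0.24, limma adjusted p = 0.00233). In the order of levels among the 72 members it went from rank 17 in control to rank 56 in cKO cortex.

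As the gene that changed, *Kcne1l* is shown with the stretch of promoter that lies upstream of its exon in both annotations, at chrX:142306295-142306448 on the minus strand (GRCm38.p6, RefSeq), 5′ to 3′. Capitals mark the only match in the window of the GC box letters GGGCGG, read here on the opposite strand.
Kcne1l: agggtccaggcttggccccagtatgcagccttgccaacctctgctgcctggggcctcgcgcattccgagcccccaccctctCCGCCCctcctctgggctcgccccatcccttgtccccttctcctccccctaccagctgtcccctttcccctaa
The full RefSeq window of 300 bases had a GC content of 69.7%, against a median of 62.0% over the 71 windows of the 50 members that have one and 52.7% over 32851 windows of all genes. On either strand, TGGGAA, the core letters bound by the Notch pathway factor RBPJ, did not occur in the *Kcne1l* window. Those letters were in 17 of 71 member windows (23.9%) and in 25.6% of all windows. TATAAA was not in it either and was found in 2 member windows (2.82%) and 13.6% of all. The GC box was in 39 member windows (54.9%) and 35.7% of all. These matches describe letters only.

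The astrocyte markers moved alongside *Kcne1l*. Their summed level was 326, 399.9 and 397 FPKM across control libraries 1 to 3 and 107, 110.1 and 191 FPKM across cKO libraries 1 to 3. Control library 1 was the lowest of its group and cKO library 3 the highest of its group in both measures. The remaining order differed, with cKO library 1 lowest in the marker sum and cKO library 2 lowest in *Kcne1l*. Of the markers summed, *Slc1a2* was 12.4, 52.9 and 60.6 FPKM across control libraries 1 to 3. *Gfap* was 19.1, 20.2 and 52.8 FPKM across cKO libraries 1 to 3. None of the 8 markers was at 0 in any library. What part astrocyte content had in the *Kcne1l* values was not tested. The inward rectifiers left out of the family are also known from glia and vessels, and 2 of the 4 fell. *Kcnj16*, which encodes Kir5.1, the partner of Kir4.1 in astrocytes, was 1.91, 1.95 and 2.23 against 0.584, 0.688 and 0.674 FPKM (log2 fold change -1.51, limma adjusted p = 0.00228). *Kcnj10*, which encodes Kir4.1 itself, was 14.5, 15.4 and 19.1 against 6.05, 6.53 and 9.9 FPKM (log2 fold change -1.14, adjusted p = 0.0204). The *Kcnj16* call held with each library left out, whereas that of *Kcnj10* ended without any 1 of the control libraries and without cKO library 1 or 2 (adjusted p = 0.0509 to 0.0756, log2 fold changes -1.22 to -1.004). *Kcnj8*, which encodes the pore of the vascular ATP-sensitive channel, was 1.92, 1.7 and 2.1 against 2.12, 2.08 and 2.15 FPKM and did not pass.

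*Kcne2*, the only other KCNE gene kept, encodes a subunit abundant in choroid plexus epithelium. *Kcne2* was 0.34, 0.335 and 0.546 FPKM across control libraries 1 to 3 and 0.901, 0.412 and 1.69 FPKM across cKO libraries 1 to 3, with the groups overlapping (log2 difference 0.96, 95% interval -0.07 to 1.99, limma adjusted p = 0.248). It passed the filter narrowly, with 3 libraries at 0.546 FPKM or above. The 7 choroid plexus and ependyma markers, *Kcnj13* among them and *Ttr* making up most of the sum, came to 38.5, 108 and 185 FPKM across control and 333, 188 and 897 FPKM across cKO libraries, and none of the 5 tested was called. The library with most choroid signal, cKO library 3, was also highest in *Kcne2* and in *Kcnj13*, a choroid plexus rectifier (0.604, 0.58 and 0.866 against 1.35, 0.35 and 2.9 FPKM). Without that library the *Kcne2* difference was 0.52 (adjusted p = 0.471).

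**Figure D2:**
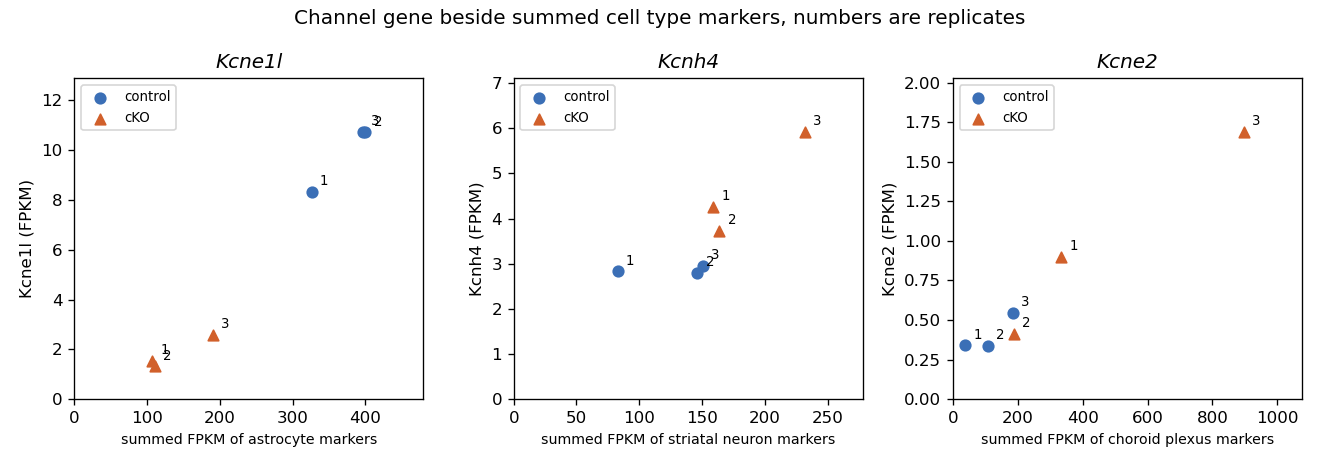
FPKM of *Kcne1l*, *Kcnh4* and *Kcne2* (vertical axes) against the summed FPKM of the astrocyte, striatal neuron and choroid plexus markers (horizontal axes). Each point is 1 library, numbered by replicate. In cKO library 3, the marker sum and the channel gene are the highest of the cKO libraries in all 3 panels. For *Kcne1l* and *Kcnh4*, cKO libraries 1 and 2 stand in opposite orders by marker sum and by gene. The control points of *Kcnh4* lie level although their marker sums differ.

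The voltage-gated pore subunits open on depolarisation and repolarise the membrane. None of the 27 kept passed the test. Their median log2 difference was 0.12, and 20 (74.1%) lay above 0, against 63.6% of all tested genes. The groups did not overlap for 7 (25.9%, against 29.7% of all tested genes), and these 7 were higher in cKO cortex, against 21.5% of all. The Kv1 genes, which encode channels of axons and their terminals, had differences from 0.08 to 0.24 in the 6 kept members. All 6 lay above 0, against 63.6% of all tested genes. Other scalings shift all genes by nearly the same amount, and with median-ratio scaling the lowest Kv1 difference was 0.00771. *Kcna1*, which encodes the axonal subunit Kv1.1, was 2.13, 1.99 and 2.11 against 2.69, 2.25 and 2.48 FPKM, and *Kcna4* was 3.85, 4.04 and 3.71 against 5.21, 4.4 and 4.14 FPKM. In both genes every cKO library lay above every control library, yet the adjusted p was 0.271 and 0.259. *Kcna6*, another Kv1 gene whose groups did not overlap, was 2.47, 2.45 and 2.48 against 2.56, 2.81 and 2.72 FPKM (adjusted p = 0.509). *Kcna3*, the Kv1 gene with the highest level, had a mean of 6.55 ± 0.807 FPKM over control libraries and 6.91 ± 0.899 FPKM over cKO libraries, and its groups overlapped.

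Kv3 channels deactivate quickly and permit fast firing. All 4 genes had differences above 0, against 63.6% of all tested genes, and with median-ratio scaling the lowest was 0.0497. *Kcnc2*, which interneurons are known to express, was 5.72, 4.38 and 5.07 against 7.41, 8.3 and 5.57 FPKM, with cKO library 3 inside the control range (adjusted p = 0.146). *Kcnc1*, used by fast-spiking cells, was 7.27, 6.58 and 7.45 against 7.72, 7.74 and 8.23 FPKM, a difference of 0.15 with no overlap of the groups (adjusted p = 0.302). *Kcnc4*, the most abundant of them, had a mean of 15 ± 1.65 FPKM over control libraries and 16.2 ± 0.1002 FPKM over cKO libraries. Beside these, 2 of 8 interneuron markers rose, with summed levels of 539 to 621 FPKM over control and 853 to 895 FPKM over cKO libraries. *Sst* made up most of that sum, with means of 402 FPKM over control and 617 FPKM over cKO libraries. Of the 8, 7 had differences above 0. *Vip* lay lower in every cKO library, at 5.6, 7.24 and 5.53 against 4.33, 5.34 and 4.42 FPKM, without passing (limma adjusted p = 0.165). The 5 tested parvalbumin cell markers had a median of 0.23. The 1 called gene among them, *Tac1*, is also on the list of striatal neuron markers, and *Pvalb* itself was below the filter. Their part in the Kv3 values was not tested.

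Kv4 channels carry the rapidly inactivating A-type current of dendrites. *Kcnd2*, the most abundant Kv4 gene, was 18.6, 18.9 and 18.7 against 18.9, 20.4 and 21.5 FPKM, and its interval of -0.04 to 0.26 was among the narrow ones. *Kcnd1* was 2.58, 2.64 and 2.66 against 2.89, 2.85 and 3.19 FPKM, higher in every cKO library by a difference of 0.17 that did not pass (adjusted p = 0.36).

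*Kcnd3*, which encodes Kv4.3, split the libraries in a way the groups did not follow. *Kcnd3* was 1.29, 5.85 and 1.09 FPKM across control libraries 1 to 3 and 1.32, 5.68 and 5.81 FPKM across cKO libraries 1 to 3. Control libraries 1 and 3 and cKO library 1 held low values, close to each other, and the remaining 3 libraries high ones. Its spread within groups, an SD of 1.23 on the log2 scale, was the widest of the 72 members, whose median was 0.187, and 52 of 14147 tested genes had one as wide or wider. The difference of 0.76 had an interval of -1.18 to 2.70 and did not pass (adjusted p = 0.635), so these data hold little information on a group effect. GENCODE M21 lists 5 transcripts for the gene. Its overlapping antisense gene *Kcnd3os* was 0.358, 0.164 and 0.289 against 0.462, 0.318 and 0.33 FPKM, below the filter, and whether counting used strand is not given in the sources used here. What set the levels apart was not tested.

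**Figure D3:**
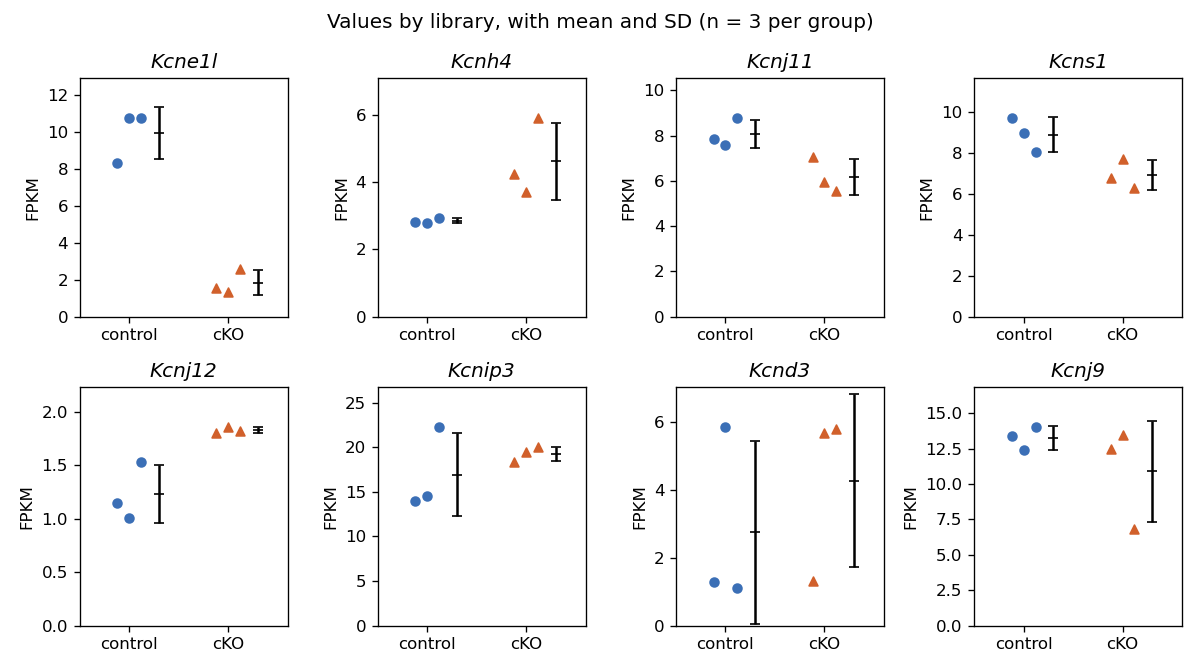
FPKM (vertical axes, from 0) of 8 potassium channel genes in each control (circles) and cKO (triangles) library, with the mean and SD of 3 libraries beside the points. *Kcne1l* separates the groups widely, *Kcnd3* takes low and high values in both, and *Kcnj9* has 1 low cKO library.

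Among the Kv2 and Kv7 genes no member passed and no groups were separate. Kv2 channels carry the slow delayed rectifier current. Kv7 channels carry the M-current that restrains repetitive firing. Their most abundant gene here, *Kcnq3*, was 16.8, 16.7 and 19.7 against 22, 22.8 and 17.2 FPKM, with cKO library 3 within the control range (adjusted p = 0.341).

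The EAG, ERG and ELK genes included both the highest pore subunit and the member closest to a called rise. *Kcnh3*, an ELK channel gene known from forebrain neurons, was the highest of all 72 members, with a mean of 32.6 ± 4.17 FPKM over control libraries and 33.8 ± 3.36 FPKM over cKO libraries. *Kcnh4*, a related ELK gene, was 2.83, 2.8 and 2.95 FPKM across control libraries 1 to 3 and 4.25, 3.73 and 5.92 FPKM across cKO libraries 1 to 3. Control values were tight and all cKO values lay above them, with cKO library 3 the highest. The difference of 0.65 (SE 0.17, 95% interval 0.26 to 1.04) missed the threshold (adjusted p = 0.0697), also with median-ratio and upper-quartile scaling. It passed where libraries were scaled to equal sums of FPKM (0.70, adjusted p = 0.0418). That scaling also took the rises over all tested genes from 519 to 907. Markers of neurons of the striatum, which adjoins the cortex, summed to 82.8, 146 and 151 FPKM across control and 159, 164 and 232 FPKM across cKO libraries. *Rgs9* and *Tac1*, the latter counted above for parvalbumin cells too, rose among those 8, and none was at 0 in any library. Their part in the *Kcnh4* values was not tested. *Kcnh5* was 3.83, 3.74 and 5.41 against 3.69, 4.42 and 2.34 FPKM, with 1 low value in cKO library 3, and its difference went from -0.33 to -0.08 without that library.

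Silent modifiers form no channel alone but join Kv2 subunits and change their gating. None of 8 kept passed, with a median of 0.09. *Kcns1*, which encodes Kv9.1, was 9.7, 8.97 and 8.02 FPKM across control libraries 1 to 3 and 6.75, 7.7 and 6.28 FPKM across cKO libraries 1 to 3. All cKO values were below all control values, a difference of -0.36 (SE 0.11, adjusted p = 0.1002). *Kcng2* was 1.18, 0.666 and 0.585 against 1.19, 1.32 and 1.68 FPKM, so that cKO library 1 and control library 1 almost met (difference 0.76, interval 0.14 to 1.38). *Kcnf1*, among the 3 most abundant members of the family, had a mean of 25.2 ± 3.2 FPKM over control libraries and 25.5 ± 2.38 FPKM over cKO libraries, *Kcnv1* a mean of 15.2 ± 0.387 FPKM over control libraries and 17.2 ± 2.19 FPKM over cKO libraries, and *Kcng1* a mean of 10.3 ± 1.66 FPKM over control libraries and 12.1 ± 1.05 FPKM over cKO libraries.

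Among the family members, Kv auxiliary subunits other than the KCNE genes did not pass. The calcium sensors KChIP bind Kv4 channels and speed their recovery. *Kcnip2* was 12.1, 13.9 and 16.5 against 17.4, 16.8 and 20.3 FPKM, with no overlap between groups (difference 0.36, adjusted p = 0.143). *Kcnip3*, also called calsenilin because its protein binds presenilins, the catalytic subunits of γ-secretase, was 13.9, 14.5 and 22.2 FPKM across control libraries 1 to 3 and 18.3, 19.4 and 19.97 FPKM across cKO libraries 1 to 3. Control library 3 lay above all others while the remaining control libraries lay below all cKO libraries. The difference of 0.22 did not pass (adjusted p = 0.496), but without control library 3 it was 0.43 and passed (adjusted p = 0.0211). *Kcnab2*, of the Kv1-binding beta subunits, had a mean of 6.09 ± 1.12 FPKM over control libraries and 6.82 ± 0.608 FPKM over cKO libraries.

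Calcium- and sodium-activated channels link spiking to a following hyperpolarisation. None of the 9 kept members grouped here passed, and their median was near 0. *Kcnu1* was placed among the 9 by its symbol and not for activation by calcium or sodium. *Kcnma1*, the pore of the large-conductance BK channel, had a mean of 9.77 ± 0.406 FPKM over control libraries and 9.34 ± 1.07 FPKM over cKO libraries, and its neuronal partner *Kcnmb4* had a mean of 17.6 ± 1.06 FPKM over control libraries and 15.8 ± 1.55 FPKM over cKO libraries. The antisense *Kcnmb4os2* overlaps *Kcnmb4* and was 0.669, 0.816 and 0.868 against 0.576, 0.537 and 0.753 FPKM, so reads of the pair may not be separable. Among the small-conductance SK genes, *Kcnn1* was 9.8, 8.7 and 11.5 against 17.6, 15 and 11 FPKM. Its value in cKO library 3 lay within the control range, and without that library the difference went from 0.52 to 0.71 and passed (adjusted p = 0.0359). *Kcnn3* was lower in every cKO library, 3.3, 2.83 and 2.84 against 2.35, 2.6 and 2.51 FPKM, without passing (adjusted p = 0.229). The sodium-activated *Kcnt1* had a mean of 4.86 ± 0.828 FPKM over control libraries and 4.78 ± 0.454 FPKM over cKO libraries, and *Kcnu1*, known from sperm, a mean of 1.29 ± 0.19 FPKM over control libraries and 1.5 ± 0.141 FPKM over cKO libraries.

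Inward rectifiers pass potassium inward more readily than outward and hold the resting potential. The 9 kept members had a median of -0.01 and none passed. *Kcnj11*, which encodes Kir6.2, the pore of ATP-sensitive channels, was 7.84, 7.58 and 8.77 FPKM across control libraries 1 to 3 and 7.06, 5.94 and 5.53 FPKM across cKO libraries 1 to 3. The cKO libraries all lay below the control libraries, a difference of -0.38 (SE 0.11, 95% interval -0.64 to -0.12, adjusted p = 0.0941). *Kcnj12*, which encodes Kir2.2, was 1.15, 1.01 and 1.53 FPKM across control libraries 1 to 3 and 1.8, 1.86 and 1.82 FPKM across cKO libraries 1 to 3. The 3 cKO values were nearly equal and above all control values, and the difference of 0.55 did not pass (adjusted p = 0.108). It passed without control library 3 (0.71, adjusted p = 0.0386). *Kcnj14*, of the same Kir2 group, was 0.54, 0.521 and 0.348 against 0.585, 0.635 and 0.632 FPKM, while *Kcnj4*, the second most abundant member of the family, had a mean of 32.2 ± 4.27 FPKM over control libraries and 31.5 ± 0.675 FPKM over cKO libraries. G-protein-gated rectifiers slow firing when inhibitory receptors are active. *Kcnj9* of that group was 13.4, 12.4 and 14 against 12.4, 13.5 and 6.84 FPKM. Library 3 of the cKO group was far below the rest, and without it the difference went from -0.34 to -0.03. Its partners *Kcnj3* and *Kcnj6* had differences of 0.14 and -0.16.

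K2P channels carry the background leak current. None of the 9 kept members passed, and their differences ranged from -0.25 to 0.18. *Kcnk1*, a leak channel gene expressed by astrocytes and neurons, was 20.3, 19.8 and 21.8 against 19.4, 17.8 and 18.6 FPKM. Every cKO value lay below every control value, with a difference of -0.15 and an interval of -0.297 to -0.00154 (adjusted p = 0.214). *Kcnk9*, level with *Kcnk1* by control mean (20.65 against 20.63 FPKM), was 24, 17.9 and 20.1 against 19.3, 17.2 and 15.4 FPKM. *Kcnk2*, a mechanically gated leak channel gene, was 5.86, 6.36 and 7.79 against 7.59, 7.77 and 7.19 FPKM. *Kcnk13*, known from microglia, was near the filter at 0.707, 0.486 and 0.466 against 0.573, 0.552 and 0.59 FPKM, while 8 microglia markers summed to 68.9 to 88.8 FPKM over control and 97.9 to 159 FPKM over cKO libraries with none called.

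The order of levels was close between the groups. The summed FPKM of the 72 members was 475 to 529 over control and 481 to 530.1 over cKO libraries. Group means on the log2 scale correlated across the 72 genes with Pearson's r = 0.968 and Spearman's rho = 0.961, a description over genes that share libraries. *Kcnh3*, *Kcnj4* and *Kcnf1* were the 3 highest members in both groups. In control cortex 5 members had a mean of 20 FPKM or more, 10 lay from 10 to under 20, 20 from 5 to under 10, 26 from 1 to under 5 and 11 under 1. Of the 71 neighbouring pairs in the control order, 66 overlapped in their library values, so the order among neighbours is mostly not resolved.

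**Figure D4:**
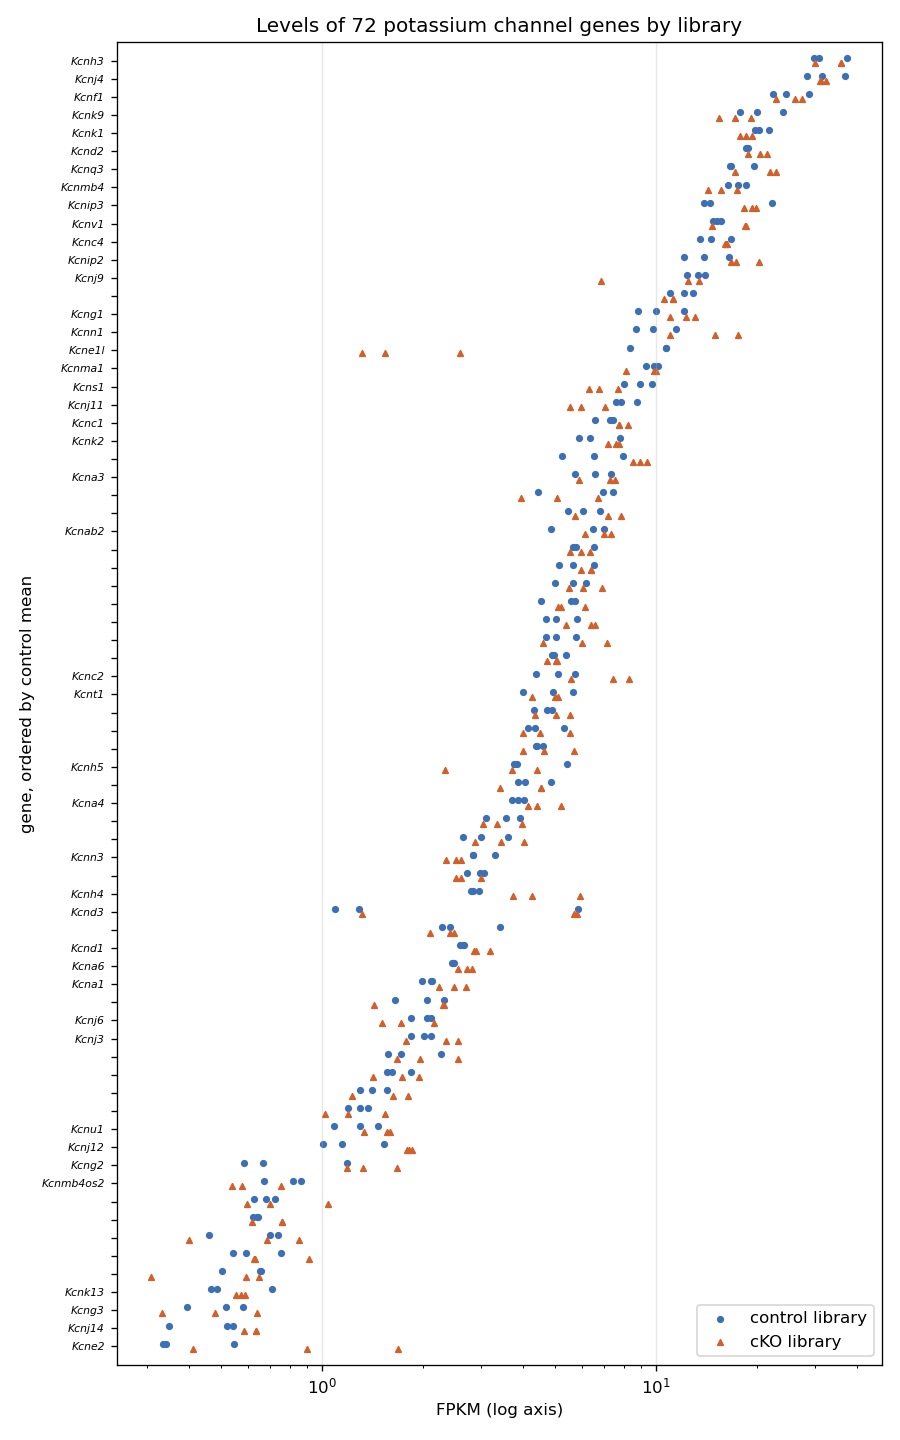
FPKM on a log axis (horizontal) of the 72 kept potassium channel genes (vertical, by control mean, with genes the text names labelled) in each control (circles) and cKO (triangles) library. *Kcne1l* is the one member whose cKO points lie far to the left of its control points.

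The 22 members under the filter included 18 protein-coding genes and 4 noncoding RNAs, with no value above 0.592 FPKM. Just inside lay *Kcng3*, *Kcne2* and *Kcnk13*, and just outside *Kcne4* at 0.155, 0.298 and 0.387 against 0.427, 0.18 and 0.592 FPKM, *Kcnd3os* and *Kcnq1*, the main known partner of KCNE subunits, at 0.275, 0.239 and 0.336 against 0.245, 0.177 and 0.222 FPKM. *Kcnmb4os1* was listed at 0 in every library.

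Among 64 genes of 7 lists of channel partners, 61 were tested, 1 rose and 1 fell, or 3.28% against the 5.53% over the table, with a median of 0.02. *Dpp10*, which encodes an auxiliary subunit of Kv4 channels, was 7.9995, 7.34 and 7.54 against 5.97, 6.17 and 5.97 FPKM and fell (log2 fold change -0.33, SE 0.07, limma adjusted p = 0.0462). It was 1 of 7 Kv2 and Kv4 partners. *Abcc9*, which encodes the sulfonylurea receptor SUR2 of ATP-sensitive channels and is known from pericytes and smooth muscle, was 1.35, 1.54 and 1.34 against 2.05, 2.16 and 2.25 FPKM and rose (log2 fold change 0.58, SE 0.12, adjusted p = 0.0403). It was 1 of 14 partners of ATP-sensitive and G-protein-gated channels. Beside it, *Tagln* also rose among 6 mural cell markers, *Abcc9* included, whose sum was 45.4 to 53.1 FPKM over control and 59.5 to 62.9 FPKM over cKO libraries, and what part mural content had in *Abcc9* was not tested. Both calls were close to the threshold and ended in every fit that left out 1 library (adjusted p = 0.0601 to 0.153 for *Dpp10* and 0.0634 to 0.134 for *Abcc9*). Neither was called with no filter on low values, *Abcc9* missed with median-ratio and upper-quartile scaling, and *Dpp10* missed with equal sums and with no trend and no robust estimation.

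The remaining partner lists had no call. Of 12 Kv1 clustering genes, the scaffold genes *Dlg4* and *Dlg2* were highest, with differences of -0.02 and -0.08. Among 9 Kv7 partners the calmodulin genes *Calm2* and *Calm3* had differences of -0.23 and -0.16 (adjusted p = 0.112 and 0.135). Of 8 partners of the BK, SK and sodium-activated channels 5 were tested, and *Lingo1* and *Csnk2b* had differences of -0.16 and 0.02. The hyperpolarisation-activated channel genes *Hcn2* and *Hcn3* were 16.8, 16.4 and 19.2 against 19.9, 19.6 and 21 FPKM and 11.6, 10.4 and 12.6 against 14.6, 13.7 and 12.9 FPKM, higher in every cKO library but not called (adjusted p = 0.155 and 0.145). On the same list of 5, *Pex5l*, which encodes the HCN auxiliary subunit TRIP8b, lay the other way in every cKO library, 6.06, 5.69 and 5.61 against 5.17, 4.26 and 3.28 FPKM, also without passing (log2 difference -0.46, adjusted p = 0.141). The sodium-potassium pump, which restores the gradients that the channels use, had 9 genes tested. *Atp1b1* and *Fxyd6*, its most abundant, differed by 0.04 and 0.12. *Atp1b2*, a pump subunit known from astrocytes, was 31.9, 30.7 and 38.1 against 21.1, 23.2 and 28.1 FPKM. Every cKO value lay below the control values without passing (adjusted p = 0.0696), and it passed without cKO library 3 (adjusted p = 0.0302).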

How the data were processed

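The authors deposited FPKM values per library in a series-wide table and in 6 files with identical values, per the file headers. The submitters' processing notes name mm10, and which aligner, counting program or strand setting was used is not given in the sources used here. No count test was run, since FPKM are not counts. The test was limma 3.58.1 in R 4.3.3 (mean-variance trend, robust) on log2(FPKM + 0.1) for genes that reached 0.5 FPKM in 3 or more libraries, with group as the only term. Changes of low genes are understated on this scale. Adjustment over all 14147 tested genes followed Benjamini and Hochberg, with calls under 0.05. Members and lists were chosen with earlier results of these data known.

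Named were called members, the most abundant per subfamily, the 5 largest changes each way, non-overlapping members with a difference of at least 0.3, those at the filter's edge, and per partner list the called or else the 2 most abundant. *Kcna1*, *Kcna4*, *Kcna6*, *Kcnc1*, *Kcnc2*, *Kcnd1*, *Kcnn3*, *Kcnk2*, *Kcnk9*, *Kcnj3*, *Kcnj6*, the left-out rectifiers, *Pex5l* and *Atp1b2* were chosen with values known. Ranges follow the table, counted from 1. Of the ranges, 27699 equal GENCODE M21. Depth was derived from 7051 single-transcript genes, of whose values above 0 a share of 71.8% to 86.5% per library came out whole within 0.01 fragments. Some genes that the naming rule takes are not reported here. No 2 libraries shared a value above 0 among tested genes. The steps were tested on simulated data. Promoters came from RefSeq (GRCm38.p6). Ranges of 27 members overlap another gene. Python 3.11.15, pandas 2.3.3, SciPy 1.17.1 and matplotlib 3.10.9 were used. Alternatives varied pseudocount, filter, scaling, fit, block, threshold and libraries.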

Additional observations from a re-analysis of the deposited data

How the results depend on the processing

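*Kcne1l* fell and passed in all 15 alternatives run for it, with log2 fold changes from -2.71 to -1.97 and adjusted p from 0.000487 to 0.0201. The count of members called was 1 in the fit as reported, 2 with equal sums of FPKM (adding *Kcnh4*), 3 at a threshold of 0.1 (adding *Kcnh4* and *Kcnj11*) and 1 to 3 with 1 library left out: 3 without control library 3 (adding *Kcnip3* and *Kcnj12*), 2 without cKO library 3 (adding *Kcnn1*), and 1 in each of the other 4 fits. The count over all genes was 783 as reported, 499 with no filter, 1519 at a threshold of 0.1 and 220 to 842 with 1 library left out (311 without control library 1, 220 without control library 2, 321 without cKO library 1 and 312 without cKO library 2). With the replicate number as a block it was 456, and the members called were still 1, *Kcne1l*. Deviations from group means correlated at r = 0.0606, 0.0116 and 0.1001 for libraries with the same number. For libraries with different numbers r was -0.0905 to 0.0562. With 3 libraries a group these values cannot tell whether the numbers mark pairs, and the main fit did not take them as pairs. Partner genes called were 2 as reported, 0 with no filter, 1 with median-ratio scaling, 1 with upper-quartile scaling, 1 with equal sums, 1 with no trend and no robust estimation, 4 at a threshold of 0.1, and 0 to 3 with 1 library left out. With the block 2 were called, *Atp1b2* among them and neither *Dpp10* nor *Abcc9*. The median of the members lay between 0.03 and 0.15 in these fits.

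Signs turned only for genes that passed in neither fit. With median-ratio and upper-quartile scaling the differences were -0.0138 and -0.00324 for *Kcnh3*, -0.0506 and -0.04002 for *Kcnf1*, -0.0327 and -0.0222 for *Atp1b1* and -0.0511 and -0.0406 for *Csnk2b*. With equal sums they were 0.0299 for *Kcnj4*, 0.0361 for *Kcnt1* and 0.0346 for *Dlg4*. With 1 library left out the ranges were -0.0118 to 0.0976 for *Atp1b1*, -0.0217 to 0.0525 for *Csnk2b*, -0.0967 to 0.0744 for *Dlg4*, -0.0156 to 0.186 for *Kcna3*, -0.0614 to 0.115 for *Kcnf1*, -0.245 to 0.146 for *Kcng3*, -0.00928 to 0.157 for *Kcnh3*, -0.108 to 0.0793 for *Kcnj4*, -0.034 to 0.222 for *Kcnk13*, -0.123 to 0.0285 for *Kcnma1* and -0.144 to 0.1002 for *Kcnt1*. The causes were not tested. With 3 libraries a group, changes under about 1.5-fold were mostly not resolved for the members, *Kcne1l* aside. Intervals reached past 1.5-fold for 25 of the 72 members and past 1.25-fold for 62, *Kcne1l* among both. Low members rest on few fragments.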
